A study of Mus musculus with 2 samples.

Results

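The 38 Hox genes described here are the rows of both deposited count tables whose NCBI gene identifiers map to a given list of mouse Hox genes, 38 of 36528 gene rows. They are 10 genes of the Hoxa cluster, 10 of Hoxb, 9 of Hoxc and 9 of Hoxd. All 38 had a row in both tables. Epidermis of C57BL/6 neonates, taken on postnatal day 1, was pooled by genotype. One pool came from 11 Rosa26-CreERT2 neonates, in which a tamoxifen-inducible recombinase is made from a locus active in most tissues. The other came from 9 Bap1fl/fl Rosa26-CreERT2 neonates, which also carry floxed alleles of Bap1. Both pools were cultured in medium M254 with HMGS, a growth supplement for melanocytes. Both received 100 nM 4-OHT (4-hydroxytamoxifen, which activates the recombinase) for 4 days and were collected after 3 more days without it. About 6000 viable cells of each pool were loaded on a Chromium 3′ kit, which gave 1 single-cell RNA library per genotype. Since each library mixes several animals, no value here belongs to 1 mouse.

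Hox genes encode homeodomain transcription factors that lie in 4 clusters in the mouse. Their order along the chromosome follows the order in which they are used from head to tail, so that genes of low group number act anteriorly and genes of high group number posteriorly. Polycomb complexes hold Hox genes silent outside their proper territory, through ubiquitin on histone H2A (PRC1) and methyl groups on histone H3 (PRC2). Trithorax proteins keep them active within it. BAP1 is the catalytic subunit of PR-DUB, the complex that removes ubiquitin from histone H2A. Adult and cultured skin cells keep Hox patterns of their body site, which is why the genes are read as a record of position.

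Each genotype has a single library, so replicate error is unknown, no test could be run, and each difference is one between 2 libraries. Pairs of values give the library labelled wild type first and the library labelled knockout second. Levels are CPM, the unique molecular identifiers (UMIs) of a gene per 1000000 UMIs of the same cells. Intervals are at 95% and cover counting error only. A member was called higher or lower at a 1.5-fold ratio of CPM, among genes with at least 20 UMIs over both libraries. The kit counts 3′ ends, so CPM are not scaled by gene length. How completely each gene's end was counted was not tested, and comparisons of level between genes rest on that.

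After filtering, 1912 and 1738 cells were kept, with 77415670 and 64518497 UMIs, and the libraries shared 3 cell barcodes. Of 11 clusters, 7 were joined (clusters 0 to 6, 1738 and 1575 cells, 73722975 and 61367908 UMIs) and are called rich in keratins. Cluster 2 was led by suprabasal keratinocyte markers, and the others were joined because no fixed marker set had 3 markers that stood out. No keratin level was required of a single cluster. Krt14, a keratin of basal keratinocytes, stood at 5756 and 4625 CPM in the joined clusters. Among them 7 suprabasal markers (Krt1, Ivl and others) stood out in cluster 2 and genes of cell division in cluster 6, and the joined clusters are called keratin-rich rather than by a cell type. The smaller classes were fibroblast-like (42 and 32 cells), melanocyte-like (29 and 70), Schwann-like (67 and 41) and myeloid-like cells (36 and 20). Fibroblast-like cells had 12 of the fixed fibroblast markers and also 6 of the skeletal muscle markers, and their leading genes included mast cell proteases (Mcpt8, Mcpt9). Bap1 RNA went against the label: it stood at 14.03 and 19.5 CPM in the clusters rich in keratins, and in all 5 classes the knockout label had the higher value. In each of the smaller classes the interval of the Bap1 ratio includes no difference. A 3′ tag outside the deleted part checks nothing, so every direction rests on the labels.

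The members lie on chromosomes 6 (Hoxa, from 52162417 to 52260880), 11 (Hoxb, 96194316 to 96368254), 15 (Hoxc, 102921131 to 103036856) and 2 (Hoxd, 74668225 to 74765142) of the GRCm38 assembly. Where annotated genes overlap, the counting could assign a UMI to either, and the values are uncertain. This applies to Hoxa3 with Hoxa4, Hoxa5 and Hoxa6, to Hoxb3 with Hoxb4, to Hoxd3 with Hoxd4 and to Hoxd10 with Hoxd11. Noncoding genes overlap Hoxa5 and Hoxa6 (Hoxaas3), Hoxb2 and Hoxb3 (Hoxb3os), Hoxb5 and Hoxb6 (Hoxb5os), Hoxc4 (Gm30528) and Hoxc9 (Gm36878), among others.

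RefSeq promoter windows (build GRCm38.p6) were available for 22 of the 38 members, in 24 windows. CG dinucleotides are the target of DNA methylation, and Polycomb complexes are known to gather at promoters dense in them. In the 250 bases ahead of the transcript start the Hox windows held a median of 12.5 CG dinucleotides (2 to 35), against 6 over 32851 windows of all genes. Their median ratio of observed to expected CG was 0.72, against 0.37, and their median GC content 58.6%, against 52.4%. The sequences below belong to members with the largest ratios between the libraries in either direction and to the leading members of their clusters, so that their promoters can be set beside their levels. They read 5′ to 3′ on the strand of the gene and end at the base before the transcript start, with each CG in capitals. Hoxa2 is at chr6:52164832-52165081, minus strand. Hoxa5 is at chr6:52204588-52204837, minus strand. Hoxa7 is at chr6:52218574-52218823, minus strand. Hoxb4 is at chr11:96318017-96318266, plus strand. Hoxc4 is at chr15:103034145-103034394, plus strand, within the longer annotated span of the gene. Hoxd9 is at chr2:74697513-74697762, plus strand, partly over an exon of an antisense gene.
Hoxa2: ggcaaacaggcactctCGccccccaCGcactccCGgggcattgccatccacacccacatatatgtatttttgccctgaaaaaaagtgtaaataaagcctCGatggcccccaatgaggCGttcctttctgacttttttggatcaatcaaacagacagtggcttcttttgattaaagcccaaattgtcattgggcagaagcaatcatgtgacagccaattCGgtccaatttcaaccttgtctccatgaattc
Hoxa5: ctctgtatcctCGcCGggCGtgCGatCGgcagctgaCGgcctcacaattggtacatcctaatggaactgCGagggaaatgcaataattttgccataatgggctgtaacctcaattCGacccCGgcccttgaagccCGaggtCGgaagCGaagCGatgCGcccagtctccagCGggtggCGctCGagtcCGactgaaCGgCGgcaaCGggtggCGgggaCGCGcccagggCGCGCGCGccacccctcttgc
Hoxa7: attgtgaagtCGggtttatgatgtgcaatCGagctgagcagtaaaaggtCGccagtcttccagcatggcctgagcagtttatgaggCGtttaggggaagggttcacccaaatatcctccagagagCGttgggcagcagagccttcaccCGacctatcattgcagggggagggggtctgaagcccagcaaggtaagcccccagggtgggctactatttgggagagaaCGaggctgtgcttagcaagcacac
Hoxb4: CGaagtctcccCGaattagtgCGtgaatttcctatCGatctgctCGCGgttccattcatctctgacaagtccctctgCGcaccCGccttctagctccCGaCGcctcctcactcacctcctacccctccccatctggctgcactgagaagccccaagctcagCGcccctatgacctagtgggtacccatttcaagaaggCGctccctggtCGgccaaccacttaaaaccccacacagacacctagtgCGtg
Hoxc4: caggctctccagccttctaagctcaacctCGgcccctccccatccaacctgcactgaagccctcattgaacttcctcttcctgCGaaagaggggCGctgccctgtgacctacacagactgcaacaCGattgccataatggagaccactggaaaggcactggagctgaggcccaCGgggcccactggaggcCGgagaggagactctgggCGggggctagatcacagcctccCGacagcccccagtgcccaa
Hoxd9: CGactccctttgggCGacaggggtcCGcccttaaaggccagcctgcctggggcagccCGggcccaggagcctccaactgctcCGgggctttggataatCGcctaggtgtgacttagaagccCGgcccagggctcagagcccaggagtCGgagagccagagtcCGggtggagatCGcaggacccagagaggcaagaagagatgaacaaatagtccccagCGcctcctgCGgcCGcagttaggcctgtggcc
The number of CG dinucleotides was 6 for Hoxa2, 28 for Hoxa5, 7 for Hoxa7, 14 for Hoxb4, 8 for Hoxc4 and 13 for Hoxd9. Hoxa5 and Hoxa7, which lie close together and were both abundant in keratin-rich cells, differ in the number of CG ahead of their starts. TGATNNAT, a motif bound by Hox proteins with their Pbx partners, was searched on both strands and was present in 4 of the 24 windows (16.7%), against 7.68% of all windows. It occurred once in the Hoxa2 window and not in the other windows printed. TATAAA, the core of the TATA box, was also searched on both strands and was present in 4 windows (16.7%), against 12.4% of all. The remaining members the results turn on, Hoxb9, Hoxc6 and Hoxc8, are named only.

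The clusters rich in keratins expressed a broad Hox set of groups 2 to 9, led by Hoxb. The summed level of all members was 572 CPM (567 to 578) and 602 CPM (596 to 609). Hoxb genes gave 343 and 412 CPM, Hoxa genes 126 and 119, Hoxc genes 97.8 and 66.7 and Hoxd genes 4.58 and 5.25. Hoxb therefore made up 60.01% and 68.4% of all Hox UMIs, and Hoxc 17.1% and 11.1%. Groups 2 to 9 together left little to the ends, since groups 10 to 13 summed to 2.66 and 2.20 CPM over 12 genes. Of the 38 members, 28 had at least 20 UMIs over both libraries, 9 had between 1 and 19, and Hoxa13, a gene of digits and the genital tubercle, had none.

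**Figure D1:**
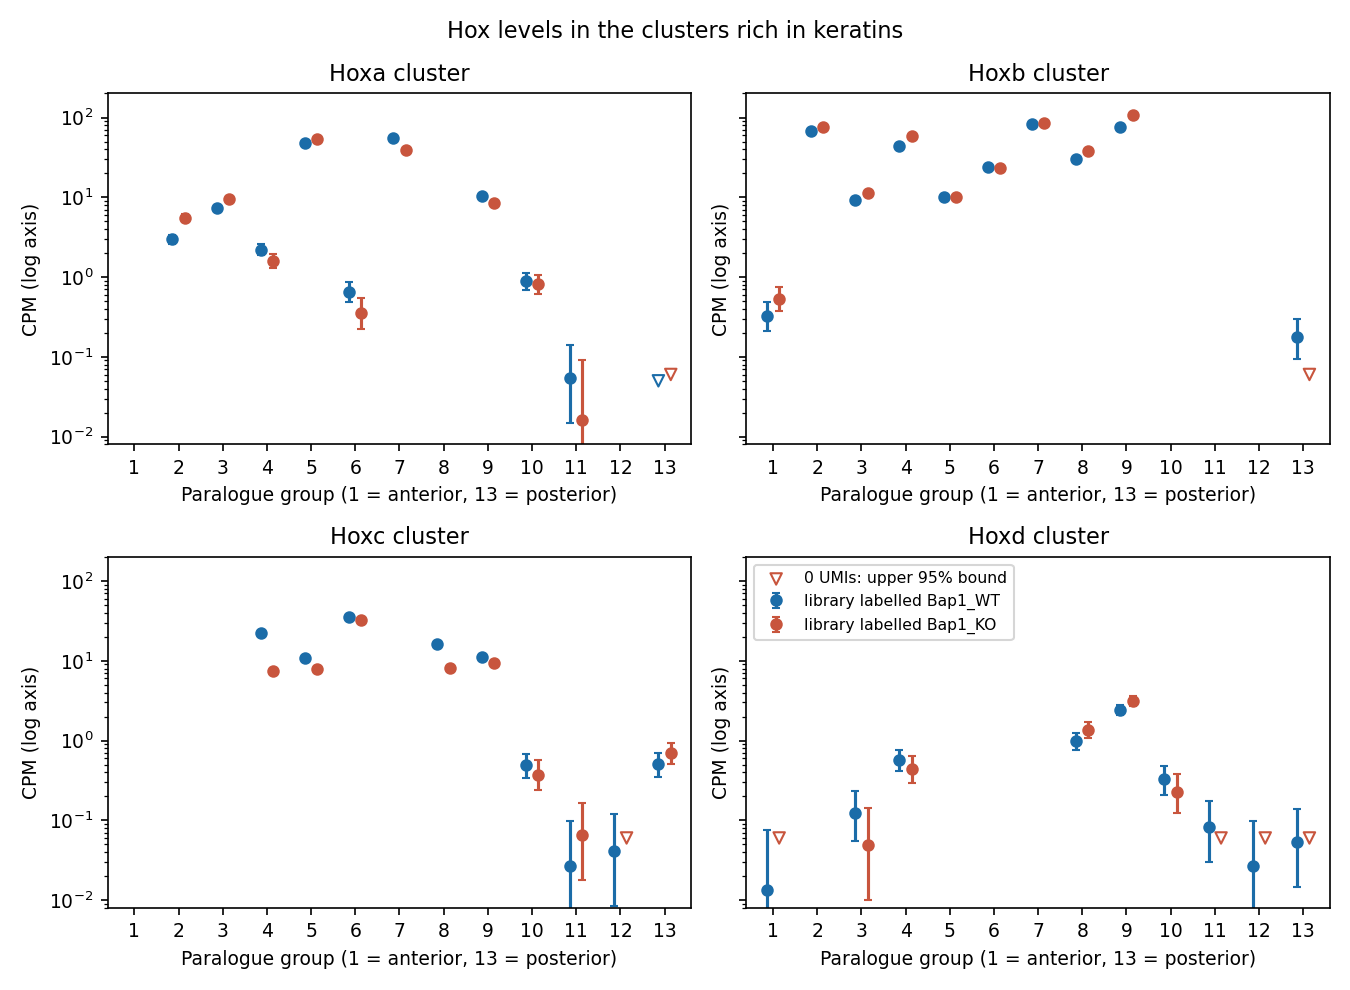
CPM of each Hox member in the clusters rich in keratins (log axis) against its paralogue group, with 1 panel per Hox cluster and exact Poisson 95% intervals (counting error only). Open triangles are upper bounds for members with 0 UMIs. Levels are high from groups 2 to 9 of Hoxb and fall steeply from group 10 on, while Hoxc4 stands at 22.4 and 7.40 CPM.

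Among the Hoxb genes, which lie in 1 row on chromosome 11, the highest levels belonged to groups 2, 7 and 9. Hoxb9, which acts in the thoracic skeleton, had 5603 and 6583 UMIs, or 76.0 and 107 CPM. Hoxb7 had 6071 and 5241 UMIs (82.3 and 85.4 CPM). Hoxb2, a gene of hindbrain patterning, had 4987 and 4705 UMIs (67.6 and 76.7 CPM). These 3 genes were the most abundant Hox RNAs in both libraries. Hoxb4, also known from blood stem cells, had 3211 and 3644 UMIs (43.6 and 59.4 CPM). Hoxb8 had 2220 and 2320 UMIs (30.1 and 37.8 CPM), and Hoxb6 1758 and 1441 (23.8 and 23.5 CPM). Hoxb5 and Hoxb3 were lower, with 10.1 and 10.1 CPM and 9.28 and 11.2 CPM. The members at either end of the cluster had few UMIs. Hoxb1, which specifies a single hindbrain segment, had only 24 and 33 UMIs (0.33 and 0.54 CPM). Hoxb13, a gene of the tail and the prostate that lies apart from the rest, had 13 and 0 UMIs.

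The Hoxa genes formed a narrower peak. Hoxa5, which acts in the lung and the cervical skeleton, had 3508 and 3305 UMIs (47.6 and 53.9 CPM). Hoxa7 had 4027 and 2372 UMIs (54.6 and 38.7 CPM). Hoxa6 lies between them on the chromosome and had 48 and 22 UMIs (0.65 and 0.36 CPM), so that a gene with few UMIs separated 2 abundant ones. Its position within Hoxa3 and Hoxaas3 leaves its count uncertain. Hoxa9, known from blood and leukaemia, had 755 and 515 UMIs (10.2 and 8.39 CPM). Hoxa3, needed for thymus and parathyroid, had 535 and 581 UMIs (7.26 and 9.47 CPM). Hoxa2, the selector of the second pharyngeal arch, had 219 and 336 UMIs (2.97 and 5.48 CPM). Hoxa4 had 162 and 98 UMIs (2.20 and 1.60 CPM), and Hoxa10, a gene of the uterus and the lumbar region, 65 and 50 (0.88 and 0.81 CPM).

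Hoxc genes were expressed from group 4 to group 9. Hoxc6 led with 2645 and 2008 UMIs (35.9 and 32.7 CPM). Hoxc4 had 1651 and 454 UMIs (22.4 and 7.40 CPM), and Hoxc8, a gene of the thoracic vertebrae, 1209 and 496 (16.4 and 8.08 CPM). Hoxc9, which acts in thoracic motor neurons, had 829 and 574 UMIs (11.2 and 9.35 CPM), and Hoxc5 796 and 490 (10.8 and 7.98 CPM). Hoxc4 was thus the second of its cluster in the library labelled wild type and the fifth in the other. Hoxc13, which drives keratin genes of the hair shaft and the nail, had 37 and 43 UMIs (0.50 and 0.70 CPM), and Hoxc10, a gene of the hindlimb level, 36 and 23 (0.49 and 0.37 CPM).

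Hoxd genes had the lowest sum of the 4 clusters. Hoxd9 led with 178 and 194 UMIs (2.41 and 3.16 CPM), in 124 and 135 cells. Hoxd8 had 72 and 84 UMIs (0.98 and 1.37 CPM), Hoxd4 42 and 27 (0.57 and 0.44 CPM) and Hoxd10 24 and 14 (0.33 and 0.23 CPM). The other 5, among them the limb genes Hoxd11, Hoxd12 and Hoxd13, had at most 9 UMIs in either library. All 5 Hoxc genes of groups 4 to 9 stood above Hoxd9, the leading Hoxd gene, in both libraries.

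Between the libraries most members stayed within 1.5-fold. Of the 28 members with at least 20 UMIs, 2 were higher in the library labelled knockout, 3 were lower and 23 were neither. Over all 16715 genes with that many UMIs, 7.71% were higher and 17.4% lower. The shares among the members, 2 and 3 of 28, are not above these. The median log2 ratio of the members was -0.01, against -0.02 over all genes. By cluster it was -0.20 for 8 Hoxa genes, 0.27 for 9 Hoxb genes, -0.38 for 7 Hoxc genes and 0.01 for 4 Hoxd genes. Hox genes as a set thus showed no common direction, and the clusters lay apart.

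The called members were few. Hoxa2 was 1.84-fold higher in the library labelled knockout (log2 ratio 0.88, 0.63 to 1.13). Hoxb1 had a log2 ratio of 0.72, with an interval from -0.08 to 1.55 that includes no difference. Hoxc4 was 3.03-fold lower (log2 ratio -1.60, -1.75 to -1.45) and Hoxc8 2.03-fold lower (-1.02, -1.17 to -0.87). Hoxa6 had a ratio of -0.86 (-1.66 to -0.10) from few UMIs. Below the 1.5-fold limit, Hoxb9 stood at 0.50 (0.45 to 0.55), Hoxb4 at 0.45 (0.38 to 0.52) and Hoxa7 at -0.50 (-0.57 to -0.43). The ends of the list were a Hoxa gene of group 2 and a Hoxc gene of group 4, both anterior members. Position along the cluster did not order the ratios, since the sum of groups 1 to 3 stood at 0.24, groups 4 to 8 at -0.05 and groups 9 to 13 at 0.35, the last from Hoxb9 mainly.

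**Figure D2:**
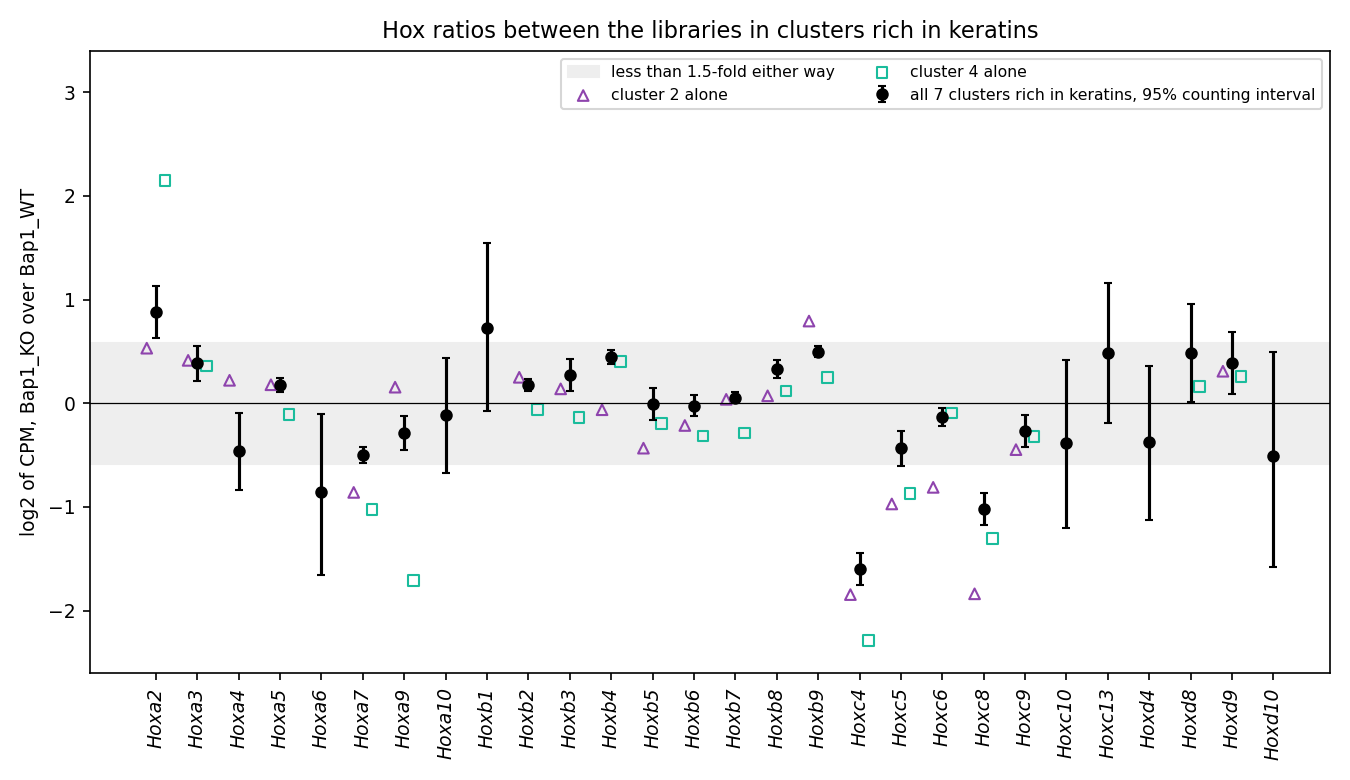
Log2 ratio of CPM, library labelled knockout over library labelled wild type, for the 28 members with at least 20 UMIs. Black points with counting intervals are all 7 clusters rich in keratins, open triangles and squares clusters 2 and 4 alone, and the grey band is less than 1.5-fold. Hoxc4 (-1.60) and Hoxc8 (-1.02) lie below the band in all 3 series, and Hoxa7 (-0.50 overall) does so in both single clusters.

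The libraries filled different keratin-rich clusters, and this bears on each ratio. Clusters 0 and 5 held 638 and 358 cells of the library labelled wild type but 30 and 29 of the other. Clusters 1 and 3 held 16 and 24 cells of the first and 564 and 474 of the second. Only clusters 2 and 4 had at least 100 cells of both. Cluster 3 had the highest Hox sum, 891 and 896 CPM, while cluster 2 had 424 and 419. Cell state and library cannot be told apart over the joined clusters. Values within clusters are therefore given for the sums of all Hox, Hoxa, Hoxb and Hoxc genes and for some members. Flanking genes, shares of cells, correlations and fixed gene lists are given over the joined clusters only, where this limit remains.

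Within clusters the picture changed for the sums. All Hox genes together were lower under the knockout label in 6 of 7 clusters, with log2 ratios from -0.73 to 0.01, although the joined sum was slightly higher (0.07, 0.05 to 0.09). Hoxc was lower in 7 of 7 clusters, from -1.53 to -0.43, and its intervals excluded no difference in each. Hoxa was lower in 7 of 7, from -1.07 to -0.17, with the interval of cluster 6 (-0.49 to 0.15) including no difference. Hoxb was higher in 5 and lower in 2, from -0.47 to 0.30. The 7 clusters compare the same 2 libraries and are not repeats of each other. In the clusters with enough cells of both libraries, Hoxc stood at 51.3 and 24.6 CPM in cluster 2 and at 113 and 67.9 CPM in cluster 4. Hoxb stood there at 255 and 290 CPM and at 416 and 429 CPM.

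**Figure D3:**
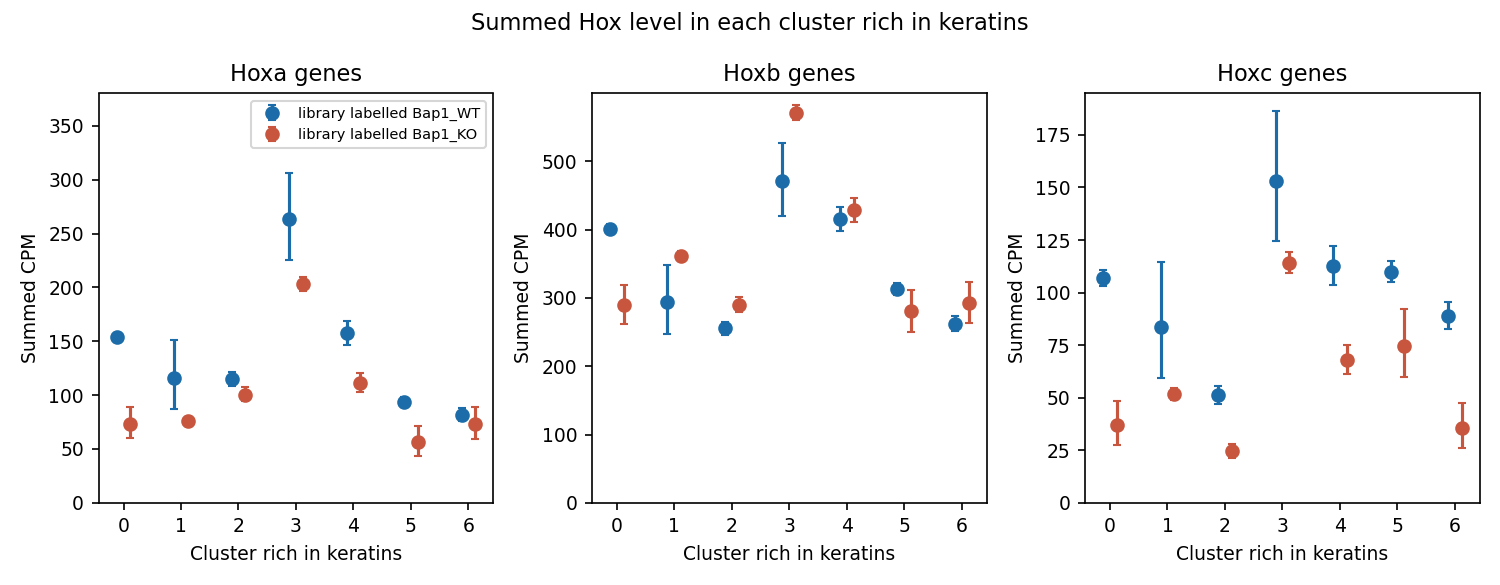
Summed CPM of Hoxa, Hoxb and Hoxc genes in each of the 7 clusters rich in keratins, by library, with exact Poisson 95% intervals. Hoxc points of the library labelled knockout lie below those of the library labelled wild type in every cluster (51.3 against 24.6 CPM in cluster 2), Hoxa points likewise, and Hoxb points in clusters 0 and 5 only.

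Single members followed the same split. Hoxc4 was lower under the knockout label in 7 of 7 clusters, with log2 ratios from -2.50 to -1.07. In cluster 2 it had 138 and 31 UMIs (12.3 and 3.43 CPM) and in cluster 4 141 and 31 (27.1 and 5.56 CPM). Hoxc8 was lower in 7 of 7 (-2.01 to -0.47), with 93 and 21 UMIs in cluster 2 and 99 and 43 in cluster 4. Hoxa7 was lower in 7 of 7 as well (-1.34 to -0.62). It had 562 and 250 UMIs in cluster 2 (50.2 and 27.7 CPM) and 371 and 196 in cluster 4 (71.4 and 35.1 CPM). Its joined ratio of -0.50 was smaller in size than that of any single cluster, and its level was highest in cluster 3 (113 and 69.8 CPM), which held 24 and 474 cells. Hoxc5 was lower in 6 of 7 clusters, Hoxc9 in 6 and Hoxc6, the leading Hoxc gene, in 5 (-1.43 to 0.21). All 7 clusters compare the same 2 libraries, so these counts are not repeats. The share of all genes lower in 7 of 7 clusters was not computed. Of 19 members with at least 20 UMIs in each of clusters 2 and 4, none was higher in both and 4 were lower in both: Hoxa7, Hoxc4, Hoxc5 and Hoxc8. Over 11541 genes with that many UMIs, 2.66% were higher in both and 6.81% lower in both.

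Hoxb9 was higher under the knockout label in both shared clusters, with 459 and 642 UMIs in cluster 2 (41.0 and 71.1 CPM) and 543 and 691 in cluster 4 (104 and 124 CPM). It was higher in 4 of the 7 clusters and lower in 3, from -0.18 to 0.79. Hoxb4 stood at -0.06 in cluster 2 and 0.40 in cluster 4, and was higher in 5 of 7. Hoxa2 had 12 and 14 UMIs in cluster 2 and 8 and 38 in cluster 4, where its ratio was 2.15 (1.02 to 3.46). In cluster 0 it was lower, with 123 and 3 UMIs (4.03 and 2.13 CPM, -0.92, -3.22 to 0.66). Hoxa2 was higher in 5 clusters and lower in 1, and cluster 1 gave no ratio (0 and 88 UMIs). Its ratio was 1.54 in clusters 2 and 4 together and 0.31, below the 1.5-fold limit, without cluster 3. Hoxa9 had 99 and 89 UMIs in cluster 2, with a log2 ratio of 0.15 (-0.27 to 0.58), and 70 and 23 in cluster 4, with one of -1.71 (-2.46 to -1.01). The difference between these clusters was not tested.

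Genes beside the Hox clusters were read as a comparison. Within 200 kb of a cluster, 12 genes other than Hox genes had at least 20 UMIs, and 11 of them stayed within 1.5-fold. Calcoco1, Smug1 and Cbx5, which flank Hoxc, stood at -0.03, 0.02 and 0.13. Beside Hoxb, Igf2bp1 lay just inside the limit at -0.57 (-0.72 to -0.42), and Skap1 stood at 0.46 (0.30 to 0.62). Lnpk beside Hoxd stood at -0.40 (-0.53 to -0.27). The others within the limit lay between -0.14 (Skap2) and 0.05 (Ube2z). The gene past the limit was Halr1, a noncoding RNA beside Hoxa, with 659 and 239 UMIs (8.94 and 3.89 CPM, -1.20, -1.42 to -0.98).

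Most keratin-rich cells held RNA of several Hox genes. The median cell had UMIs of 9 and 8 members, with at most 18 and 19, and the median number of Hox UMIs was 20 and 18. Only 7 of 1738 and 5 of 1575 cells had no Hox UMI. After each cell was thinned to 8000 UMIs, the median keratin-rich cell had UMIs of 3 members in both libraries. Of these thinned cells 94.6% (93.5 to 95.7) and 94.5% (93.3 to 95.6) had a Hox UMI, against 33.3% (18.6 to 51.0) and 35.0% (15.4 to 59.2) of myeloid-like cells. Hoxb9 was seen in 43.3% and 53.8% of thinned keratin-rich cells (81.9% and 89.7% unthinned), and in no thinned myeloid-like cell of 36 and 20, which at that depth allows up to 8.33% and 15% of cells with a UMI (the limit of 3 counts). Without thinning 11.1% and 10.0% of myeloid-like cells had a Hoxb9 UMI, at median totals of 19443.5 and 16120 UMIs against 39626 and 35581. Hoxa7 was seen in 31.1% and 21.3% (64.3% and 45.4% unthinned), Hoxc4 in 15.3% and 5.65% (49.4% and 19.1%) and Hoxc8 in 11.97% and 5.59% (36.2% and 18.2%). For Hoxa7, Hoxc4 and Hoxc8 the share of cells with a UMI was thus lower under the knockout label at equal depth per cell.

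Members of the same and of different clusters occurred in the same cells. Of the keratin-rich cells thinned to 8000 UMIs, 754 and 676 had Hoxb7, 752 and 848 had Hoxb9, and 370 and 401 had both. Hoxb9 was present in 46.6% and 51.7% of the cells with Hoxc4, against 43.3% and 53.8% of all cells. Before thinning the largest rank correlations across cells, given as a description, were between Hoxb7 and Hoxb8 (0.39 and 0.46 over 1738 and 1575 cells) and between Hoxa7 and Hoxb7 (0.42 and 0.38). Cells share library and depth, and after thinning the values were 0.14 and 0.19 and 0.15 and 0.16. The largest were then 0.17 for Hoxb6 with Hoxb7 in the first library and 0.21 for Hoxa5 with Hoxa7 in the second.

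Among groups 10 to 13, Hoxa10 was seen in 45 and 37 keratin-rich cells and Hoxc13 in 28 and 37. The UMIs of groups 11 to 13 without Hoxc13 were few, and the cells that held several of them, described next, were picked out after their values were seen. In the library labelled wild type 1 cell of cluster 6, with 59005 UMIs, held 4 of the 6 Hoxd11 UMIs, both Hoxd12 UMIs, 2 of the 4 Hoxd13 UMIs and 2 of the 4 Hoxa11 UMIs. It also held 4 UMIs of Hoxa10, 3 of Hoxd10 and 3 of Hoxa11os, an antisense RNA of the limb gene Hoxa11. A second cell, in cluster 1, held 1 UMI each of Hoxa11, Hoxd10, Hoxd11 and Hoxd13, with 3 of Hoxa10 and 5 of Hoxa11os. This combination is that of limb and tail genes, and 2 cells of 1912 are no measure of a cell type. Of the 13 Hoxb13 UMIs, 6 were in 1 cell of cluster 0. The library labelled knockout had none of Hoxb13, Hoxc12, Hoxd1, Hoxd11, Hoxd12 or Hoxd13 in keratin-rich cells. At its depth, the exact Poisson upper bound for 0 UMIs is 0.060 CPM.

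Fibroblast-like cells had more Hoxc and Hoxd RNA and less Hoxa and Hoxb RNA than keratin-rich cells. Their summed Hox level was 450 and 419 CPM, or 78.6% and 69.6% of that of keratin-rich cells. Hoxc stood at 175 and 139 CPM, 179% and 208% of the keratin-rich level, while Hoxa and Hoxb reached 42.5% to 55.7% of theirs. Hoxd, at 15.3 and 10.3 CPM from 19 and 9 UMIs, was at 334% and 196%. Krt14 in these cells was 24.1% and 29.3% of its keratin-rich level. Hoxc10 had 48 and 18 UMIs (38.7 and 20.6 CPM), against 0.49 and 0.37 CPM in keratin-rich cells. These 42 and 32 cells held 48 of the 85 and 18 of the 41 Hoxc10 UMIs of all cells. Hoxa10 had 19 and 6 UMIs (15.3 and 6.87 CPM). Hoxa7 led the Hoxa genes there (46 and 18 UMIs, 37.1 and 20.6 CPM), Hoxb9 the Hoxb genes (64 and 65, 51.6 and 74.5 CPM) and Hoxc6 the Hoxc genes (53 and 39, 42.7 and 44.7 CPM). Next to Hoxb9 stood Hoxb7 in the library labelled wild type (51 and 31 UMIs, 41.1 and 35.5 CPM) and Hoxb2 in the other (35 and 35, 28.2 and 40.1 CPM). Hoxc9 had 38 and 29 UMIs (30.6 and 33.2 CPM).

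Between the libraries Hoxc4 differed in fibroblast-like cells in the same direction as in keratin-rich cells, with 33 and 8 UMIs (26.6 and 9.16 CPM, -1.54, -2.86 to -0.40). The Hoxa7 ratio was -0.85 (-1.72 to -0.03) and that of Hoxc10 -0.91 (-1.78 to -0.10). Hoxc5, Hoxc6 and Hoxc9 stood at 0.12, 0.06 and 0.12, with intervals that include no difference. The summed Hoxc ratio was -0.34 (-0.67 to -0.01). A finer clustering divided this class into 24 and 14 fibroblast-like cells and 18 and 18 cells led by skeletal muscle genes (Myog, Tnnc2, Myl1), and the part of this make-up in the ratios was not tested. These sums rest on few cells, and single cells held up to 25.0% of the UMIs of Hoxc4 in a library.

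**Figure D4:**
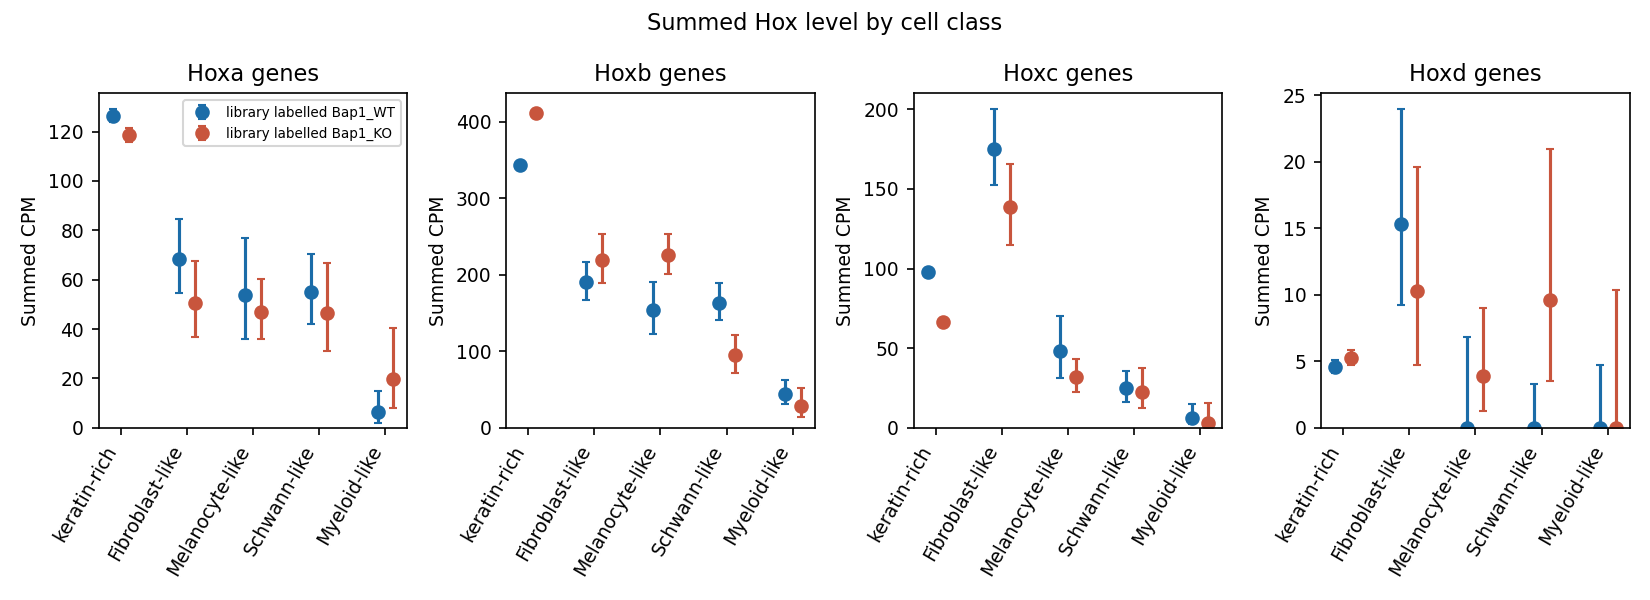
Summed CPM of Hoxa, Hoxb, Hoxc and Hoxd genes in the 5 cell classes, by library, with exact Poisson 95% intervals. Hoxc is highest in fibroblast-like cells (175 and 139 CPM), Hoxa and Hoxb in the clusters rich in keratins, and each sum is lowest in myeloid-like cells or at 0 UMIs.

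Melanocyte-like and Schwann-like cells derive from the neural crest. Melanocyte-like cells had 138 and 400 Hox UMIs (255 and 308 CPM), led by Hoxb9 (20 and 72 UMIs, 37.0 and 55.5 CPM) and, next to it, Hoxb7 in the library labelled wild type (18 UMIs, 33.3 CPM) and Hoxb2 in the other (65 UMIs, 50.1 CPM). Hoxa5 had 10 and 32 UMIs (18.5 and 24.7 CPM), Hoxa7 12 and 18 (22.2 and 13.9 CPM) and Hoxc6 9 and 19 (16.6 and 14.6 CPM). Schwann-like cells had 275 and 108 Hox UMIs (243 and 173 CPM), led by Hoxb9 (47 and 20 UMIs, 41.6 and 32.1 CPM). Hoxb2 had 39 and 5 UMIs there, Hoxb7 33 and 12, Hoxa7 25 and 13 and Hoxa5 23 and 11. Hoxb9 led in both classes and both libraries.

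These UMIs sat mainly in cells that also held keratin RNA. A level of 1000 CPM of Krt14, chosen after the values were seen, divided the cells. In the library labelled wild type 9 melanocyte-like cells at or above it held 132 of the 138 Hox UMIs (433 CPM), while 20 cells below it held 6 (25.5 CPM, 9.35 to 55.4). In the library labelled knockout 13 cells above held 279 of 400 (480 CPM) and 57 cells below held 121 (169 CPM, 140 to 202), of which 77 were in 1 cell. That cell had 65911 UMIs in all and Krt14 at 819 CPM, close below the level, so the 169 CPM does not describe the other cells below it. Schwann-like cells followed suit, with 209 of 275 UMIs in 7 cells (703 CPM) and 66 in 60 (79.3 CPM) in the first library, and 84 of 108 in 5 cells (449 CPM) and 24 in 36 (54.9 CPM) in the second. Cells above the level were deeper, with median totals of 40471 to 44519 UMIs against 10294 to 12381 below. The melanocyte-like cells above it also had less RNA of Dct, Pmel, Mlana and Tyrp1, at medians of 11694 and 4047 CPM against 62682 and 62882. Fibroblast-like cells did not share this relation, since those below the level had 487 and 478 CPM of Hox genes and those above it 321 and 262. Whether 2 cells shared a droplet was not tested beyond the doublet call, which marked 1 and 7 cells.

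**Figure D5:**
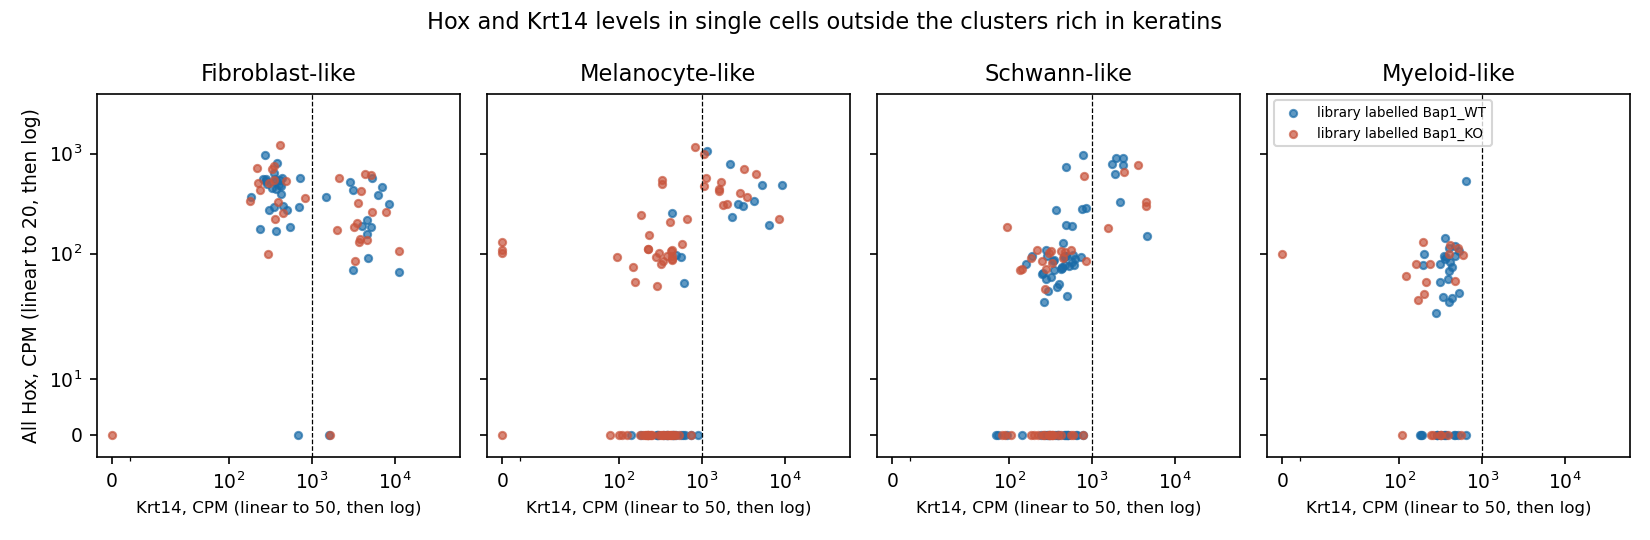
Summed Hox CPM against Krt14 CPM in single cells of the 4 classes outside the clusters rich in keratins, with both axes linear near 0 and logarithmic above. The dashed line is 1000 CPM of Krt14. To its left 16 of 20 and 30 of 57 melanocyte-like cells and 22 of 60 and 19 of 36 Schwann-like cells are at 0 Hox CPM, and to its right none of these 2 classes is.

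Myeloid-like cells gave the lowest values, 45 and 18 Hox UMIs (57.5 and 50.5 CPM). This was 10.1% and 8.38% of the keratin-rich level. Krt14 and Krt5, keratins that myeloid cells do not make, stood at 6.35% and 6.55% and at 10.7% and 12.7% of theirs. By cluster the share was 13.03% and 6.81% for Hoxb and 5.06% and 16.5% for Hoxa, and 11 of the 45 UMIs were in 1 cell. The source of these UMIs was not tested. Below 1000 CPM of Krt14, melanocyte-like cells stood at 25.5 and 169 CPM. The first value has an interval (9.35 to 55.4) that overlaps the myeloid-like one (42.0 to 77.0). The second rests on 121 UMIs, of which 77 were in 1 cell. Schwann-like cells stood at 79.3 and 54.9 CPM, with intervals (61.3 to 101 and 35.2 to 81.8) that overlap the myeloid-like ones (42.0 to 77.0 and 29.9 to 79.8). No member had 20 UMIs in myeloid-like cells.

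Cofactors and regulators of Hox genes were examined as fixed lists in the clusters rich in keratins, beside 7.71% of all genes higher and 17.4% lower. TALE cofactors are homeodomain proteins that bind DNA with Hox proteins. Of 10 with at least 20 UMIs, none was higher and 2 were lower: Meis1 (371 and 178 UMIs, 5.03 and 2.90 CPM) and Meis3 (2549 and 1103, 34.6 and 18.0 CPM). From the list of retinoid handling and Cdx genes, which set Hox expression in the embryo, 12 had at least 20 UMIs, none of them a Cdx gene. Of these, 2 were higher and 4 lower. The lower ones were Rarb, a retinoic acid receptor (5.71 and 3.11 CPM), Crabp1, a retinoid carrier (13.2 and 6.91 CPM), Cyp26b1, which degrades retinoic acid (200 and 92 UMIs), and Aldh1a1 (0.50 and 0.28 CPM). Aldh1a2, which makes retinoic acid (13 and 25 UMIs), and Gdf11 (8 and 12 UMIs) were higher, the latter with an interval (-0.56 to 2.35) that includes no difference, as does that of Aldh1a1 (-1.78 to 0.01). Crabp1 was also a leading gene of the fibroblast-like cells.

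The Polycomb and Trithorax genes mostly stayed within 1.5-fold. Of 20 PRC1 genes, 1 was higher and 2 were lower, Pcgf5 (31.1 and 17.6 CPM) and Rybp (14 and 6 UMIs, with an interval from -2.62 to 0.51 that includes no difference). Of 12 PRC2 genes, Phf19, which helps place PRC2 at CG-rich DNA, was lower (17 and 5 UMIs). Of 11 PR-DUB genes, Mbd5 was higher (3.12 and 5.25 CPM), and of 12 Trithorax and H3K27 demethylase genes none passed the limit in either direction. The median log2 ratios were 0.13, 0.01, 0.22 and 0.14 in that order, against -0.02 over all genes.

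Other homeobox and developmental genes known as Polycomb targets differed in both directions. Of 88, 40 had at least 20 UMIs, of which 10 were higher and 9 lower, with a median log2 ratio of 0.04. The share higher, 10 of 40, stood beside 7.71% of all genes, and the share lower, 9 of 40, beside 17.4%. Those named with their log2 ratios are Msx1 (19 and 56 UMIs, 1.82), Otx1 (13 and 36, 1.73) and Foxf1 (49 and 131, 1.68, 1.20 to 2.19) among the higher, and Wt1 (20 and 3, -2.47) and Dlx2, a gene of the branchial arches (166 and 43, -1.68, -2.20 to -1.19), among the lower. Of 18 noncoding RNAs of the Hox clusters in the tables, 9 had at least 20 UMIs. Mir196a-1 was higher (13 and 18 UMIs, with an interval from -0.38 to 1.88 that includes no difference), and Halr1, Mira (851 and 469 UMIs, -0.59) and Hoxaas3 (47 and 23, -0.77) were lower.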

How the data were processed

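Single-cell RNA was measured in 2 libraries, 1 per genotype label, and each is 1 sample. For each library the authors deposited a matrix of raw UMI counts with genes in rows and cells in columns. The submitters' processing notes list the tools Cell Ranger 2.1 and Seurat 2.0 and the build mm10, and assign no step to any of them. The handling of introns, strand and doublets is not given in the sources used here. Both the members and gene lists were chosen with earlier results of these data known.

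Of 36528 gene identifiers, 31049 matched RefSeq (GRCm38.p6). The others, with 2.67% of UMIs, stayed in the totals. The tables held 1926 and 1760 cells, with 77579465 and 64954113 UMIs and minimums of 10065 and 8776 per cell. Cells needed 500 genes and at most 10% mitochondrial UMIs. Scrublet (assumed rate 0.02) marked 1 and 7 doublets. Cells of both libraries were clustered together (totals scaled to 10000, log transform, 2000 variable genes, 30 components, 15 neighbours, Leiden resolution 0.5), without the labels and without integration. A class name needed 3 fixed markers at 5-fold over the mean of the other clusters. UMIs were summed per class and library. Sums have exact Poisson, ratios conditional exact and shares Clopper-Pearson intervals, at 95%. Where 1 library had 0 UMIs, 3 UMIs took their place and gave a ratio that leaves out counting error, or no ratio if that level exceeded the other. Thinning drew 8000 UMIs per cell. The code was checked on simulated data. Named members have at least 20 UMIs in the clusters rich in keratins or rank first or second of their Hox cluster in another class with at least 20 UMIs. Alternatives covered cell filters, doublets, resolution, thinning, weights, clusters left out and thresholds. Clusters 2 and 4 alone, and the Krt14 split, were added after the data were seen. Some genes of the fixed lists are not reported here. Sequences were printed for the leading members and the 3 largest ratios each way among members with 100 UMIs, read as 100 in each library. Read over both libraries, Hoxd8 would take the place of Hoxb4. Python 3.11.15, scanpy 1.11.5, scipy 1.17.1, leidenalg 0.10.2 and matplotlib 3.10.9 were used.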

Additional observations from a re-analysis of the deposited data

Results flagged for a closer look

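Some Hox ratios lay on opposite sides in 2 cell classes. The difference between classes was not tested, since each class had 1 library per label. The sum of all Hox genes had a log2 ratio of 0.074 in the clusters rich in keratins and -0.49 in Schwann-like cells. Hoxb genes stood at 0.26 in the clusters rich in keratins, 0.56 in melanocyte-like cells and -0.79 in Schwann-like cells. Hoxb2, a gene of hindbrain patterning, had 0.18 in the clusters rich in keratins and -2.11 in Schwann-like cells, where 39 and 5 UMIs were counted. In Schwann-like cells 209 of 275 and 84 of 108 Hox UMIs were in the 7 and 5 cells with at least 1000 CPM of Krt14. In melanocyte-like cells 132 of 138 and 279 of 400 were in 9 and 13 such cells, and 77 more of the 400 were in 1 other cell. The part of those cells in the ratios was not tested. Hoxb13 stood at -1.85 in the clusters rich in keratins (13 and 0 UMIs) and at 1.24 in fibroblast-like cells (0 and 5 UMIs). Both ratios take 3 UMIs in place of 0, and their counting intervals come as near to no difference as -1.34 and 0.38. All 5 UMIs were in 1 cell, and 6 of the 13 in another.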

How the results depend on the processing

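The counts of members higher and lower (2 and 3), their median (-0.01) and the log2 ratio of their sum (0.07) in the clusters rich in keratins were recomputed. A count was taken as kept within 1.5-fold of the main one, the median within 0.1 and the sum inside its counting interval. Of 84 recomputed values 55 were kept, among them all under other cell filters, doublets kept and both other resolutions. Equal weight for each cell gave 1 higher, 5 lower and a sum at 0.10. Equal weight for each cluster gave 1 higher, 11 lower, a median of -0.33 and a sum at -0.19, where 8.37% of all genes were higher and 18.9% lower. Without cluster 0 the values were 5, 5, 0.11 and 0.26, where 8.68% of all genes were higher and 18% lower. Without cluster 1, 5 were higher, the median was 0.22 and the sum 0.25, where 9.22% of all genes were higher. Without cluster 3, 1 was higher and 12 lower, the median was -0.32 and the sum -0.23, where 6.57% and 19.2% of all genes passed. Without cluster 4, 5 were lower, beside 17.3% of all genes. Without clusters 5 and 6 in turn the sum was 0.043 and 0.042. Thinning to 8000 UMIs gave 1 higher and a median of 0.090. Clusters 2 and 4 alone, added after the data were seen, gave 5 lower, a median of -0.15 and a sum at -0.042. There 14.2% of all genes were lower. A minimum of 10 UMIs gave 5 lower, one of 100 gave 1 higher, and a 2-fold limit gave 0 higher. For equal weight per cell, thinning and other thresholds the share of all genes was not computed. The sign of the sum and of the median therefore depends on which clusters enter. Of 28 members, 12 kept their sign under all 19 alternatives run for single genes, among them Hoxa2, Hoxa7, Hoxb4, Hoxb9, Hoxc4, Hoxc5 and Hoxc8. The other 16 changed sign at least once, Hoxb1 among them, at -0.63 with equal weight for each cluster and -0.057 in clusters 2 and 4. The cause was not tested. Depth limits the members below 20 UMIs. No paired analysis was possible because each label has 1 library.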
